A study of Mus musculus with 2 samples.

Results

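The SLC30 family comprises the zinc transporters of mouse cells that move zinc out of the cytosol, either across the plasma membrane or into vesicles and organelles. In β cells, zinc is concentrated in the insulin granule, where it crystallizes with insulin, and Slc30a8 (ZnT8) is the granule transporter that supplies it. The 10 genes analysed, Slc30a1 to Slc30a10, were taken as a family, among 22350 protein-coding genes, and not for any measured value. Earlier results of these data were known when they were chosen. Binding of Rfx6, a winged-helix transcription factor of the RFX family that recognises X-boxes, was measured by ChIP-seq in Min6b1 cells, an insulin-secreting line derived from mouse β cells. The cells had been transfected with 24 μg of a CMV-promoter plasmid for Rfx6 carrying an HA tag (3HA-Rfx6) and harvested 2 days later, and the tagged protein was precipitated with the anti-HA antibody 12CA5. Anti-HA ChIP-seq of Min6b1 cells served as the control and entered only through the peak calling. There was 1 library per condition, so the values have no replicate error, and no expression was measured in these libraries, which means that the identity of the cells could not be checked against marker genes.

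The peak list held 23308 peaks with 24 to 3489 reads (median 73) and fold enrichments over background of 2.43 to 95.8 (median 8.54). MACS retained 33949757 reads of the 3HA-Rfx6 library and 3567375 of the control, a ratio of 9.52. A gene was counted when the summit of a peak, its position of highest signal, lay in the gene or within 50 kb of it. Coordinates are those of mm9 (NCBIM37) and genes those of GENCODE M1.

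Slc30a8 had 0 peaks by this rule, whereas 6 of the other 9 zinc exporter genes had at least 1 and held 19 peaks between them. These were Slc30a1 and Slc30a2 with 5 peaks each, Slc30a3 and Slc30a10 with 3 each, Slc30a9 with 2 and Slc30a5 with 1. Slc30a4, Slc30a6 and Slc30a7 had 0, like Slc30a8. The family thus counted 6 of 10 genes, and 67.9% of all protein-coding genes were counted by the same rule, so the share with a peak was not high for this family. A summit inside the gene was found for 3 of the 10 (31.4% of all protein-coding genes), and a summit within 1 kb of a transcription start for 4 of the 10 (22.6% of all protein-coding genes).

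**Figure D1:**
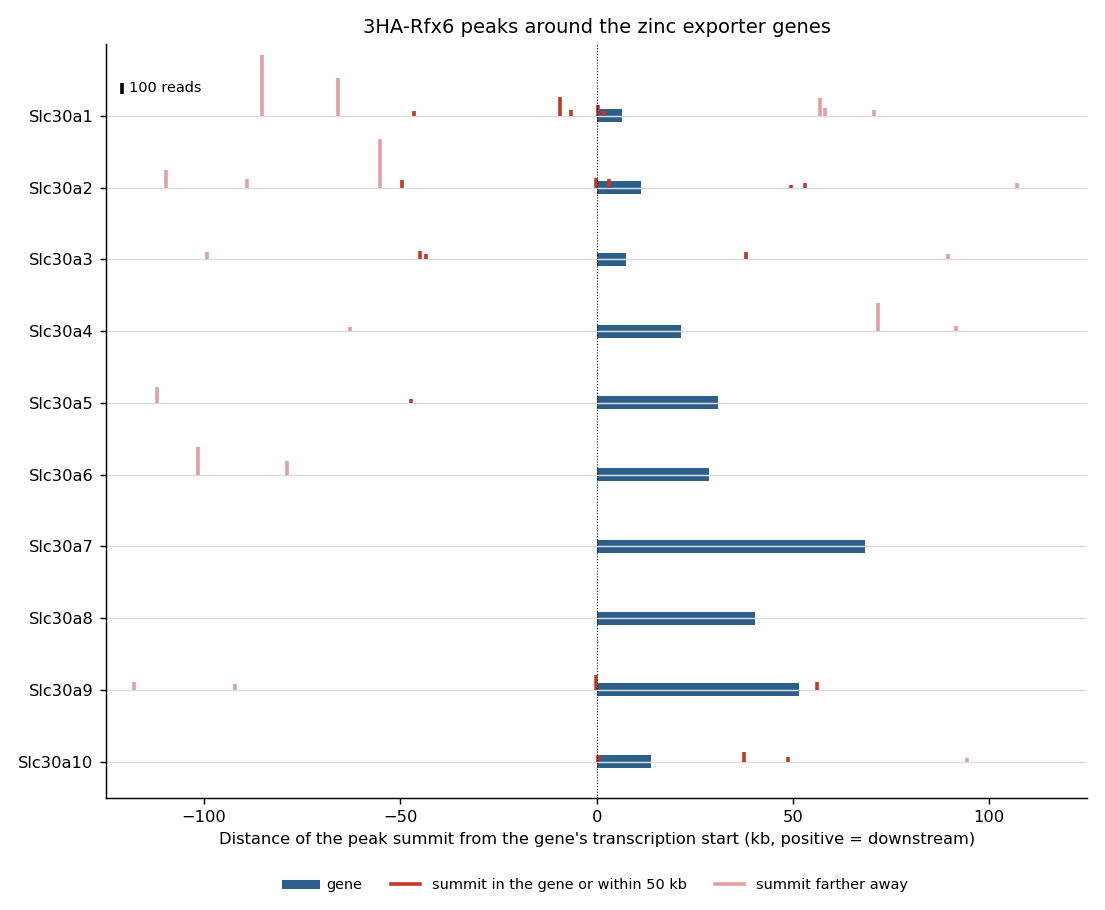
Peaks around the 10 zinc exporter genes, with the distance of each summit from the start of the gene in kb on the horizontal axis, and a bar whose height is the number of reads. Peaks gather at the starts of Slc30a1, Slc30a2, Slc30a9 and Slc30a10, and no summit is drawn in the rows of Slc30a7 and Slc30a8.

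Before the single genes are described, the sequences on which the comparison turns are given, each 5′ to 3′ on the strand named, with the X-box in capitals. An X-box is a pair of short inverted repeats separated by a few bases. It was searched on both strands as a strict pattern and as a relaxed one that allows more bases at most positions. The relaxed pattern is narrower elsewhere in the repeat and always needs a base between the repeats. A strict site therefore need not match the relaxed pattern, and only some sites match both. The first pair of sequences holds the strict X-boxes of the family that lay inside a peak, and the next pair relaxed X-boxes close to the summit of a peak. The last 3 hold strict X-boxes outside any peak.
Slc30a10 coding exon 1, chr1:187278998-187279071, plus strand: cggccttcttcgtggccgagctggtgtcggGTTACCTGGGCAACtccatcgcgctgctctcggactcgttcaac
Slc30a2 locus, chr4:133948715-133948787, plus strand: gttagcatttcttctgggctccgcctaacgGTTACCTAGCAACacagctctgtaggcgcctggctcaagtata
Slc30a1 upstream region, chr1:193721291-193721363, plus strand: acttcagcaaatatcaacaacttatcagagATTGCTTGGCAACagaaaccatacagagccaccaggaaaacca
Slc30a9 downstream region, chr5:67754295-67754367, plus strand: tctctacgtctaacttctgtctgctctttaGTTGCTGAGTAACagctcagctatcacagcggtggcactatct
Slc30a8 intron 5, chr15:52158067-52158141, minus strand: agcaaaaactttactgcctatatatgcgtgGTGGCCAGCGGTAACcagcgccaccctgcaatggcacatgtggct
Slc30a8 upstream region, chr15:52094599-52094673, minus strand: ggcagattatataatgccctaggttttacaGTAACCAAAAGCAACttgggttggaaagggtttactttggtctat
Slc30a5 locus, chr13:101557449-101557521, plus strand: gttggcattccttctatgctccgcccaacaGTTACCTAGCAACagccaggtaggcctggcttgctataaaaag

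Slc30a8 (ENSMUSG00000022315.3, chr15:52127108-52167353, plus strand) has 8 exons over 40.2 kb. The nearest summit was 450 kb upstream, and the nearest downstream summit lay 1090 kb past its 3′ end. Of all protein-coding genes, 9.57% were at least as far from a summit, and the median distance over all genes was 13.1 kb. Among the 10 zinc exporters, Slc30a8 was the farthest from a peak, followed by Slc30a7 at 140 kb and Slc30a6 at 79.0 kb.

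**Figure D2:**
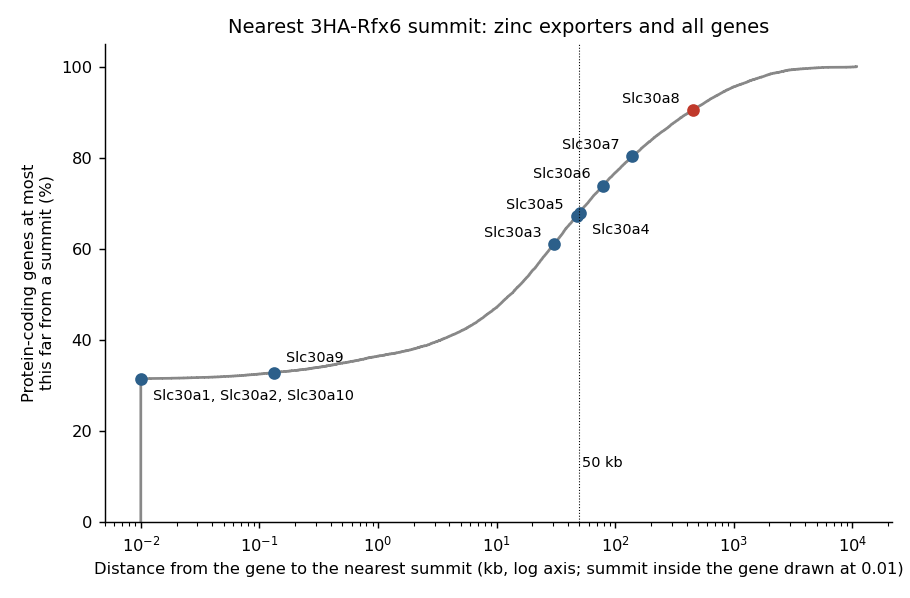
Cumulative percentage of protein-coding genes by the distance from the gene to the nearest summit in kb, on a log axis, with the 10 zinc exporters marked. Slc30a8, in red at 450 kb, is the rightmost of the family, and Slc30a4 and Slc30a5 lie on either side of the 50 kb line.

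The upstream flanking peak, from 51676994 to 51678121 with its summit at 51677544, lay in intron 1 of Eif3h, which encodes a subunit of the translation initiation factor eIF3. It held 51 reads (exact 95% Poisson interval 38.0 to 67.1, counting error only) at 7.27-fold enrichment, with 71.04 for the score and 2.09% for the FDR. At least as many reads were held by 75.3% of all peaks. The downstream flanking peak had its summit at 53255959, 78.2 kb from the start of Ext1, a heparan sulfate polymerase gene, and held 53 reads with a fold enrichment of 6.96.

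The interval between both summits spans 1580 kb and contains 8 protein-coding starts, those of Eif3h, Utp23, Rad21, Aard, Slc30a8, Gm10020, Med30 and Ext1. Rad21 encodes a cohesin subunit and Med30 a subunit of the Mediator complex, both used by most cells. None of these 8 starts has a listed peak within 1 kb, but this follows from how the interval was drawn, between neighbouring summits. The starts closest to its ends, those of Eif3h and Ext1, are 19.5 and 78.2 kb from the flanking summits. Only 0.996% of the intervals between neighbouring summits were as long, but such intervals hold many genes, 12.7% of all protein-coding starts. Within 2 Mb of Slc30a8 there were 6 summits, with 38 to 79 reads, against a median of 47 summits for all protein-coding genes, and 7.54% of genes had as few. The corresponding counts within 1 Mb were 3 summits for Slc30a8 and a median of 25 for all genes. In the family, the counts within 2 Mb ranged from 6 at Slc30a8 to 134 at Slc30a2, and the next lowest was 11 at Slc30a7.

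**Figure D3:**
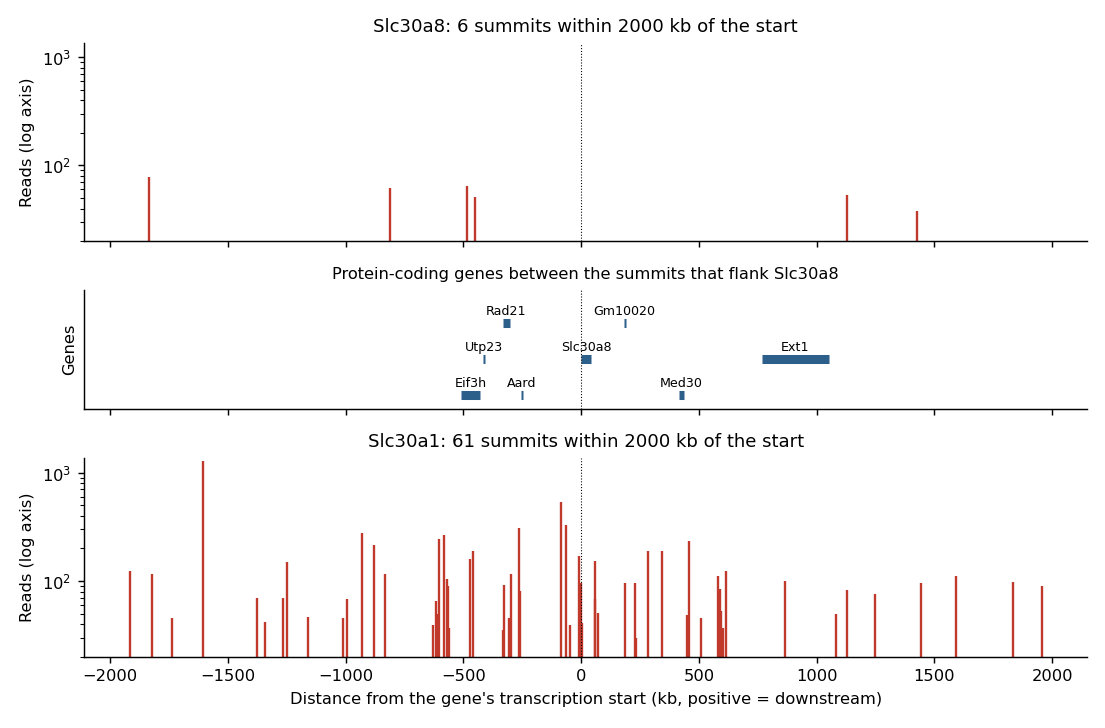
Reads of each peak (log axis) against the distance from the transcription start in kb, for Slc30a8 (top, with the protein-coding genes of its interval below) and for Slc30a1 (bottom). Slc30a8 has 6 summits within 2 Mb of its start and Slc30a1 has 61.

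The sequence of the Slc30a8 locus is not without X-boxes. The gene and 50 kb on each side held 2 strict X-boxes, or 14.3 per Mb, against 11.4 per Mb over the 20 chromosomes of the list. One lies in intron 5 at 52158097 to 52158111, 31.0 kb after the start of the gene, and the other at 52094629 to 52094643, 32.5 kb before it. Neither lay in a peak, and the upstream one was 417 kb from the nearest summit. Over the genome, 8.09% of the 29119 strict X-boxes lay within a peak, so most matches to the pattern have no listed peak. A match describes the letters and not an occupied site. The list holds only regions called at a p of 1e-05 or lower, and the smallest number of reads in it was 24. The reads at Slc30a8 itself were not analysed here, so the list says nothing of binding below that cutoff.

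Slc30a1 encodes ZnT1, the zinc exporter of the plasma membrane, whose transcription is known to respond to zinc through the factor Mtf1. The gene is ENSMUSG00000037434.7 (chr1:193730646-193737126, plus strand). Its largest peak had the most reads of the 19, with 169 (interval 144 to 196) and a fold enrichment of 12.02, and 12.0% of all peaks held at least as many. The summit at 193721342 was 9304 bp upstream of the start, in an intron of the neighbouring gene 1700034H15Rik. The relaxed X-box in capitals above for this region was 9 bp from that summit. Another relaxed match, left in lower case in the same printed window, lies at 193721348 to 193721361, 6 bp from the summit.

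Another Slc30a1 peak lay at the start of the gene, with its summit at 193730978, in coding exon 1 of Slc30a1-001 and 157 bp before the start of Slc30a1-002. It held 95 reads (interval 76.9 to 116) and had a fold enrichment of 12.0. The same summit lies in exon 1 of 1700034H15Rik, so the peak cannot be assigned to only 1 of these genes. The other 3 peaks held 52, 41 and 39 reads, at 6.49 kb upstream, in intron 1 and at 46.4 kb upstream. The summit of the peak of 41 reads was nearer to a start of 1700034H15Rik, at 1116 bp against 1387 bp for Slc30a1. That of the peak of 39 reads was nearer to the start of Nek2, a mitotic kinase gene, at 38.8 kb.

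Slc30a10, although it belongs to this family, is known chiefly as an exporter of manganese. The gene is ENSMUSG00000026614.6 (chr1:187278727-187292641, plus strand). Its peak at the start held 59 reads (interval 44.9 to 76.1) with a fold enrichment of 7.53, and the summit at 187279143 was in coding exon 1, 416 bp after the start. The strict X-box printed above lies in the same coding exon at 187279028 to 187279041, inside the peak and 102 bp from the summit, which placed it just outside the 100 bp searched around summits. The summit and this X-box also lie in exon 1 of the noncoding RNA gene Gm2061, so neither can be assigned to Slc30a10 alone. Both downstream peaks of Slc30a10 are intergenic. They held 88 and 44 reads with fold enrichments of 14.37 and 6.94, at 23.6 and 34.8 kb beyond the end of the gene, and neither had a strict or relaxed X-box within 100 bp of the summit.

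The vesicular transporters Slc30a2, Slc30a3 and Slc30a4 load zinc into secretory or synaptic vesicles, as Slc30a8 does for insulin granules. Slc30a2 (ZnT2), which serves milk zinc in the mammary gland, is ENSMUSG00000028836.8 (chr4:133899096-133910399, plus strand). A peak of 88 reads (interval 70.6 to 108) and a fold enrichment of 6.83 had its summit 234 bp upstream of the first start, at 133898862, and a peak of 71 reads and a fold enrichment of 10.59 lay in intron 3 of Slc30a2-003. The other 3 summits within 50 kb were nearer to the starts of other genes. One of 64 reads was 5.72 kb from Pdik1l and 49.6 kb from Slc30a2, and those of 26 and 39 reads were 3.50 kb and 13 bp from Pafah2.

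The peak of 26 reads had the only strict X-box within 100 bp of a summit among the 19 peaks, 8 bp from the summit at 133948737. Its core, with the same 13 bases, occurs again at the Slc30a5 locus, where it had no peak, and the nearest summit was 93.1 kb away. Both printed windows shared 47 of 73 bases (64.4%) in place, flanks included. This count contains the 13 core bases by which the windows were paired. This core was frequent in the genome, with 2731 copies, of which 3.11% lay in a peak. For all strict X-boxes that share was 8.09%.

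Slc30a3 (ZnT3), the zinc transporter of synaptic vesicles, is ENSMUSG00000029151.7 (chr5:31388479-31395988, minus strand). It was counted through 3 peaks of 67, 50 and 75 reads, at 30.6, 43.6 and 45.0 kb from the gene. Each was closer to another start. The first was in intron 2 of Cad, which encodes the enzyme that begins pyrimidine synthesis, 525 bp from its start, and the other 2 were 1.62 kb and 245 bp from the start of Ucn, the urocortin gene. Slc30a3 itself had 0 summits in the gene.

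Slc30a4 (ZnT4), a transporter of endosomes and secretory vesicles, is ENSMUSG00000005802.6 (chr2:122506969-122528399, minus strand) and was just outside the limit, with the nearest summit 50197 bp away. Its nearest peak held 250 reads (interval 220 to 283) with a fold enrichment of 15.82, and 4.46% of all peaks held at least as many. The summit at 122456772 was in exon 1 of Spata5l1, annotated there as a noncoding transcript, and 71.6 kb from the start of Slc30a4. The nearest protein-coding start was that of AA467197, at 5.95 kb. On the inner side of the limit, the peaks nearest to it were the one of 64 reads at 49.6 kb from Slc30a2 and one of 37 reads at 47.3 kb from Slc30a5. The peak just outside the limit thus held more reads than any of the 19 inside it.

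Slc30a5, Slc30a6 and Slc30a7 act in the early secretory pathway, where Slc30a5 pairs with Slc30a6 and all 3 supply zinc to enzymes such as alkaline phosphatases. These 3 genes had 0 summits in the gene and 0 within 1 kb of a start. For Slc30a5 (ENSMUSG00000021629.8, minus strand of chromosome 13, 101572604 to 101603382), the peak of 37 reads (interval 26.1 to 51.0) had a fold enrichment of 7.06 and lay 47.3 kb upstream, in intergenic DNA, with 96.9% of all peaks holding at least as many reads. Slc30a5 nevertheless had the most strict X-boxes of the family, 6 within 50 kb or 45.9 per Mb, and 1 of these was in the 5′ UTR of Slc30a5, 0.022 kb after the start. None of the 6 lay in a peak.

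For Slc30a6 (ENSMUSG00000024069.5, plus strand of chromosome 17, 74794972 to 74823569), the nearest peak held 120 reads with a fold enrichment of 10.36, and its summit was 284 bp from the start of Dpy30, a subunit of histone H3K4 methyltransferase complexes. For Slc30a7 (ENSMUSG00000054414.3, minus strand of chromosome 3, 115641891 to 115710324), the nearest peak held 80 reads with a fold enrichment of 9.89 and was intergenic, 84.3 kb from the start of S1pr1.

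Slc30a9, known for zinc export from mitochondria, is ENSMUSG00000029221.8 (chr5:67698194-67749804, plus strand). The peak at its start had the highest fold enrichment of the 19, 17.18, with 129 reads (interval 108 to 153). The summit at 67698062 was 132 bp upstream of the start of Slc30a9, which was also the nearest protein-coding start. The 201 bases around this summit contain 16 CpG dinucleotides, shown in capitals, and no strict or relaxed X-box.
Slc30a9 promoter, chr5:67697962-67698162, plus strand: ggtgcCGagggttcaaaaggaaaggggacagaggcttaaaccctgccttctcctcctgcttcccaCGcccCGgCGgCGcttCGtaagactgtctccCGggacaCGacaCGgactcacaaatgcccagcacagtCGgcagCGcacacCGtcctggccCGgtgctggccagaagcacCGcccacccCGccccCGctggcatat
The other Slc30a9 peak, 4.57 kb past the 3′ end, had 71 reads at 9.89-fold enrichment, and the relaxed X-box printed above for it was 39 bp from the summit.

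The zinc exporter peaks were of middling to small size in the list. Their reads ranged from 26 to 169 with a median of 64, against a median of 73 for all peaks, and 6 of the 19 held more than that median. Their median fold enrichment was 7.53 (5.18 to 17.18), against 8.54. Scores ranged from 54.26 to 514.21 and FDR values from 1.82% to 4.77%. The peak with the lowest score, of 41 reads, also had the lowest FDR. Scores of 317.05 and 514.21 had FDR values of 4.77% and 3.32%, both above that of this weakest peak. A lower FDR thus did not always mark a stronger peak here. Among protein-coding starts, 11 of the 19 summits were nearest to a start of the zinc exporter itself and 8 to that of another gene.

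**Figure D4:**
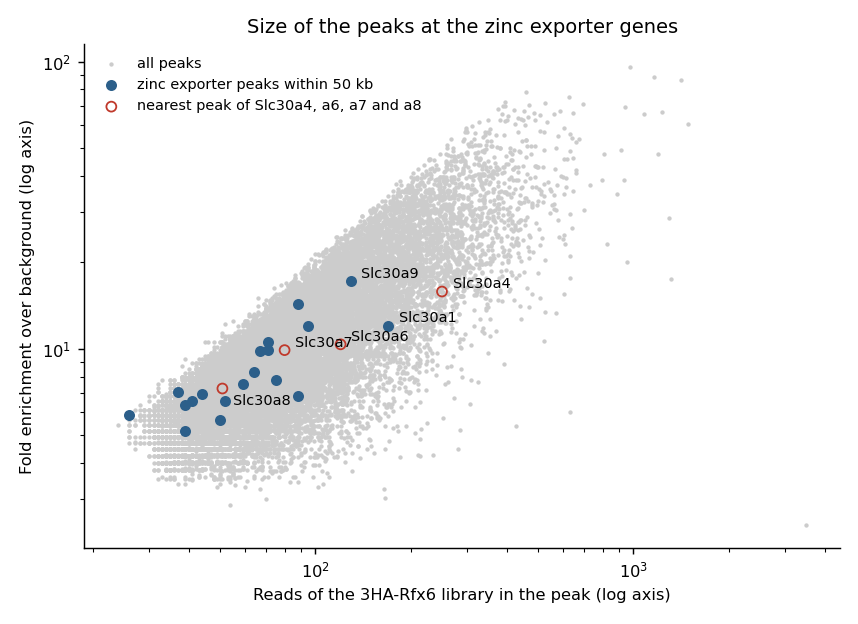
Reads and fold enrichment of each peak, both on log axes, for all 23308 peaks (grey), the 19 peaks within 50 kb of a zinc exporter (blue) and the nearest peaks of Slc30a4, Slc30a6, Slc30a7 and Slc30a8 (red rings). The zinc exporter peaks lie within the cloud of all peaks, and the nearest peak of Slc30a8 is toward its lower end with 51 reads.

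Within 1 kb of a protein-coding start lay 7 of the 19 summits, against 21.0% of all summits, 4 of them at Slc30a1, Slc30a2, Slc30a9 and Slc30a10 and the other 3 at Cad, Ucn and Pafah2. The peaks near starts were richer in CpG. Their median was 12 CpG dinucleotides in the 201 bases around the summit, whereas the other 12 zinc exporter peaks had a median of 2. For all peaks the corresponding medians were 14 and 2, so the family followed the whole list in this respect. Among the peaks at the starts of family members, Slc30a10, Slc30a1 and Slc30a9 had 24, 21 and 16 CpG dinucleotides, and Slc30a2 had 6. A strict X-box was present within 100 bp of 1 of the 19 summits, against 6.44% of all summits, and a relaxed one at 8 of the 19, against 46.0%. In the 10 loci with 50 kb on each side there were 19 strict X-boxes, of which 2 lay in a peak, and 3 loci (Slc30a1, Slc30a4 and Slc30a9) had 0. Slc30a9 and Slc30a1, which had the highest fold enrichment and the most reads among the 19 peaks, were both among the loci without a strict X-box. This does not set their peaks apart, because only 6.44% of all summits have a strict X-box within 100 bp. The share of other gene loci with 0 is not given here.

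**Figure D5:**
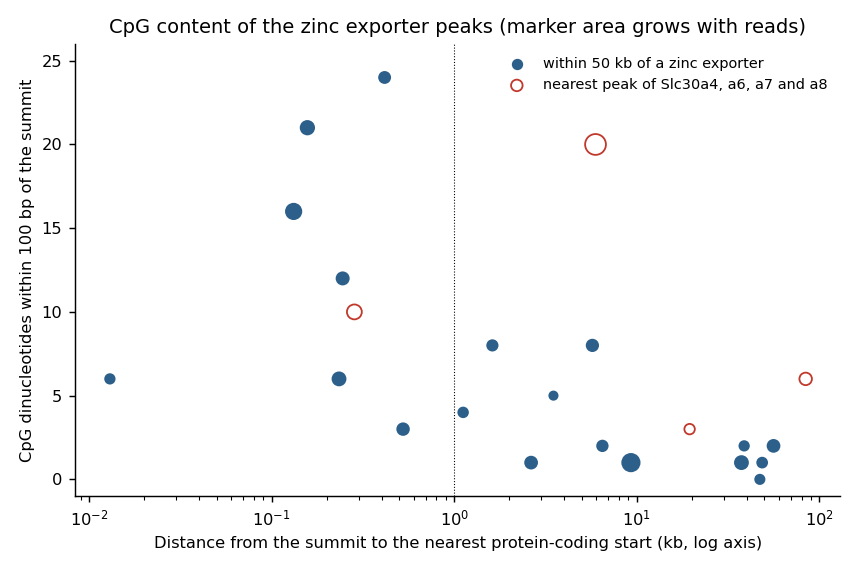
CpG dinucleotides within 100 bp of the summit against the distance from the summit to the nearest protein-coding start in kb (log axis), with marker area growing with reads. Peaks with over 10 CpG dinucleotides among the 19 (blue) all lie within 1 kb of a start, while the nearest peak of Slc30a4 (largest red ring) has 20 at 5.95 kb.

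Gene length bears on the counting, because a longer gene covers more DNA. Of the genes of 15.4 to 42.5 kb, the length quartile that holds Slc30a4, Slc30a5, Slc30a6 and Slc30a8, 73.9% had a summit within 50 kb. Among the shorter genes of 4.70 to 15.4 kb, where Slc30a1, Slc30a2, Slc30a3 and Slc30a10 belong, 71.0% had one. Among the longest genes, over 42.5 kb, where Slc30a7 and Slc30a9 belong, 77.5% had one. In this family all 4 genes of the shorter group were counted, 1 of the 4 of 15.4 to 42.5 kb (Slc30a5) and 1 of the 2 longest (Slc30a9).

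Of 20 other genes of zinc handling, 17 had a summit within 50 kb, which is 85.0% against the 67.9% of all protein-coding genes, and their list was not chosen without knowledge of these data. The zinc importers of the SLC39 family, which bring zinc into the cytosol, had 11 of 14, and Slc39a8, Slc39a10 and Slc39a13 had 0 peaks, with the nearest summit 64.5, 382 and 113 kb away. The metallothionein genes Mt1 to Mt4, whose products bind zinc in the cytosol, form 1 cluster on chromosome 8 and share peaks, so their 4 of 4 is not 4 separate observations. The peak nearest to Mt2, of 77 reads and a fold enrichment of 6.83, was 0.300 kb from the gene.

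Mtf1, the zinc-sensing transcription factor that activates the metallothioneins and Slc30a1, had a peak of 365 reads and a fold enrichment of 32.01 in an intron, 0.496 kb from a start, and 1.32% of all peaks held at least as many reads. This exceeded every peak within 50 kb of a zinc exporter. Slc39a3 and Slc39a4 were counted with peaks of 368 and 363 reads, but these lay 36.5 and 37.4 kb away in introns of Gng7 and Cyhr1.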

How the data were processed

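Anti-HA ChIP-seq of 3HA-Rfx6 transfected Min6b1 cells was analysed from 1 peak list. The authors sequenced 50-base reads, mapped them to mm9 (the submitters' processing notes name Bowtie and CASAVA 1.8.2 without their roles) and called peaks with MACS 1.4.2 against the control library, with an effective genome size of 1870000000, a p-value cutoff of 1e-05, at most 1 read per position and local backgrounds over 1000 and 10000 bp. The 3HA-Rfx6 library had 49443917 reads and the control 16911298. The read count that the authors deposited for each peak is not normalized. The deposited fold enrichment is a ratio to the expected background, and the deposited FDR is in percent. The deposited score is the p-value as MACS transforms it, larger for a smaller p-value, and is not itself the exponent of the p-value.

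Summits (start + summit - 1) were placed on GENCODE M1. Every peak end was checked to lie within its chromosome in NCBIM37, the mm9 assembly. Every protein-coding gene of the 20 chromosomes with peaks was counted by the same rule. Intervals for reads are exact Poisson intervals and cover counting error only. No test between groups was run, since there was 1 library per condition. X-boxes were searched within 100 bp of summits, and strict ones also over whole peaks, the loci of the members and the 20 chromosomes. The searches used Python 3.11.15 (pandas 2.3.3, numpy 2.4.6), with intervals from scipy 1.17.1 and plots from matplotlib 3.10.9. Distances and the search for the strict X-box were tested on simulated data, and the relaxed pattern was not.

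All 10 members are named. Of the other zinc genes, those whose highest peak held the most reads (3 genes) and those without a peak are named, and Mt1 to Mt4 as a group. A gene outside the family is named where its start is nearer to a summit than that of the member. Spata5l1, Gm2061 and the genes around Slc30a8 were named after their positions were seen. The members and lists were chosen with earlier results of these data known.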

Additional observations from a re-analysis of the deposited data

How the results depend on the processing

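For the number of zinc exporter genes with a peak (6 of 10), summits inside the gene gave 3 and an FDR of at most 1% gave 0, where 31.4% and 0.125% of all protein-coding genes were counted. It was 4 within 10 kb (47.1% of all protein-coding genes), 4 within 20 kb (55.2%), 8 within 100 kb (76.7%), 6 within 50 kb of a transcript start (63.7%), 7 when any base of the peak decided (68.0%), 5 for the 50% of peaks with the highest scores (51.2%) and 4 for a fold enrichment of at least 10 (45.7%). Slc30a8 had 0 peaks under all 7 alternatives tried, but no other result was possible. Its nearest summit is 450 kb away, and these settings reach at most 100 kb or only remove peaks. The nearest peak of Slc30a8 ranked 9 among the 10 genes by reads and by fold enrichment and 10 by score. Slc30a1 has 2 summits in the gene, and these ranks hold with its peak of 95 reads. Its peak of 41 reads is below that of Slc30a8 on all of these measures, so using it would raise the rank of Slc30a8. The number of peaks at the other zinc exporters (19) was 4 inside the gene, 9 within 10 kb, 9 within 20 kb and 35 within 100 kb, and it was 7 for the 50% of peaks with the highest scores, 5 for a fold enrichment of at least 10 and 0 for an FDR of at most 1%. These alternatives for the 19 peaks were chosen after seeing the data. Promoters with a peak (4) were 4 within 5 kb (31.1% of all protein-coding genes), 2 for the 50% of peaks with the highest scores (13.3%) and 2 for a fold enrichment of at least 10 (9.88%). A strict X-box was found in 2 of the 19 peaks when the whole peak was searched (8.87% of all peaks) and a relaxed one at 8 summits (46.0%). The other zinc genes with a peak were 17 within 50 kb (67.9% of all protein-coding genes) and 12 within 10 kb (47.1%). Fewer peaks or a shorter distance lower these counts by construction. Among the 19 peaks the lowest FDR belonged to the peak with the lowest score, so the FDR cutoff is not a selection of the strongest peaks. No paired analysis was possible because each condition is a single library, which also leaves no replicate to omit. The shallow control sets the background of every peak, and its effect was not tested.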
